A study of Mus musculus with 35 samples.

Results

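The forkhead genes encode transcription factors that share the winged-helix DNA-binding domain. Members were taken by symbol, as protein-coding autosomal genes named Fox with a letter from a to s and a number. The RefSeq gene table of GRCm38.p6 held 47 such symbols, of which 3 were not protein coding, 3 lay on X and 3 were not used here, so that 38 members on 14 chromosomes remained of 20665 autosomal protein-coding genes. Histone marks at these genes were read from 13 peak lists, 1 per stage and mark, made by the authors from CATCH-seq, a chromatin immunoprecipitation for small cell numbers that adds carrier DNA. The lists covered H3K4me3, H3K27me3 and H3K36me3 in oocyte-like cells of c13 and c34, in fetal oocytes (E18.5, counted in embryonic days) and in germinal vesicle (GV) oocytes, and H3K27me3 alone in oogonia-like cells of c7. The cultured stages came from 1 embryonic stem cell line, H18, carrying Prdm1-mVenus and Dppa3-ECFP reporters. The E18.5 oocytes came from mice with those reporters and the GV oocytes from BDF1 mice, and every sample was given as wild type. Stage and source therefore cannot be told apart between cultured and animal-derived cells, and the GV oocytes also differ in strain.

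Forkhead factors pattern many embryonic tissues, and single members act as pioneer factors that open closed chromatin. Several are needed in 1 lineage each, while the FOXO, FOXK and FOXP subfamilies are expressed more widely. FOXO factors such as FOXO1 are held out of the nucleus by insulin and PI3K signalling. That pathway also controls the waking of oocytes from dormancy. H3K27me3 is laid down by Polycomb repressive complex 2 over silent developmental genes, H3K4me3 marks active and poised promoters, and H3K36me3 is laid down over transcribed gene bodies. In growing mouse oocytes H3K4me3 is known to spread into broad domains outside promoters.

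The sequences upstream of 5 members are shown because these genes differ in CpG content and in the H3K27me3 behaviour described further on. Each is the 250 bases before the start listed by RefSeq on GRCm38.p6, read 5' to 3' on the strand of the gene, with CpG dinucleotides in capitals. Foxc1 (chr13:31806396-31806645, plus strand) and Foxb2 (chr19:16873831-16874080, minus strand) carried H3K27me3 in all 5 lists. Foxd3 (chr4:99656049-99656298, plus strand) and Foxd4 (chr19:24901017-24901266, minus strand) lacked it in GV oocytes, and Foxk2 (chr11:121259737-121259986, plus strand) had it in the c13 list alone.
Foxc1: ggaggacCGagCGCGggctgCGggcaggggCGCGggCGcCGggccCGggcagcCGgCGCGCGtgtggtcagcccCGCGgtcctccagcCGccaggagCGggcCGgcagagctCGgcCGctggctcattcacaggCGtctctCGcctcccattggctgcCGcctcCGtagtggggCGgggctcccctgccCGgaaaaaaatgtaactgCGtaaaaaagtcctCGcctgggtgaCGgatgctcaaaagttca
Foxb2: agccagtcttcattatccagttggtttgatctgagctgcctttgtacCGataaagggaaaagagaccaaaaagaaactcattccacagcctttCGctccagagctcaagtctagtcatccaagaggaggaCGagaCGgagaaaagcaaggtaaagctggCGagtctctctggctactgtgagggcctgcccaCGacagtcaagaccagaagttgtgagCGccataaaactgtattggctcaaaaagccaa
Foxd3: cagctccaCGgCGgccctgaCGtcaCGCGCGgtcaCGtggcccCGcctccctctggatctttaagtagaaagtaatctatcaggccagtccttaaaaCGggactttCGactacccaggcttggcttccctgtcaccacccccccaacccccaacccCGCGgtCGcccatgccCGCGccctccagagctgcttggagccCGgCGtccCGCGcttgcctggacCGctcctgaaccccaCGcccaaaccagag
Foxd4: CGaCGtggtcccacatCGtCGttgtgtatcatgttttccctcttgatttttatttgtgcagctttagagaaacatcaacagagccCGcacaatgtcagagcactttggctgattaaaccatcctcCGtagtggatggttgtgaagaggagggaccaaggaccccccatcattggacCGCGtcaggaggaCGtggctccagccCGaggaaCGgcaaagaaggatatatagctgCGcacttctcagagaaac
Foxk2: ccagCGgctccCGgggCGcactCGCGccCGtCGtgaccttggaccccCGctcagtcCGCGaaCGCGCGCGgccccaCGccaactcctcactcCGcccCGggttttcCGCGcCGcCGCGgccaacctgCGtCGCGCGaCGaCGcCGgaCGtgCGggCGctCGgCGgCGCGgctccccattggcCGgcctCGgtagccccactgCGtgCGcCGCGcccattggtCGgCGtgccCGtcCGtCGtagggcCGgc
These stretches held 29 CpG in Foxc1, 7 in Foxb2, 21 in Foxd3, 12 in Foxd4 and 48 in Foxk2. Because the genes were chosen to differ in CpG content, these counts do not compare kept with lost members.

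The lists hold positions only, with no height, score or depth, and no replicate lists, so no test could be made and differences between stages carry no error. The authors' H3K4me3 peaks lie on a grid of 1 kb and the H3K27me3 and H3K36me3 peaks on a grid of 10 kb. The labels give from 1 library, for H3K4me3 and for H3K27me3 in GV oocytes, to 4 libraries per stage and mark. Of 8 germ cell and oocyte markers (Ddx4, Dazl, Sycp3, Figla, Nobox, Sohlh1, Zp3 and Gdf9), 8 carried promoter H3K4me3 in c13, 8 in c34, 7 for E18.5, where Zp3 lacked it, and 8 in GV oocytes. Of 8 markers of ovarian somatic cells, which include Amh, Fshr and Wt1, the counts were 5, 3, 3 and 4. All genes had promoter H3K4me3 at 71%, 65.4%, 60.6% and 72.8% in the same order. In GV oocytes 5 markers of each kind had H3K36me3 from 20% of the body, beside 63.1% of all genes. Promoter H3K27me3 lay there at 2 germ cell and 5 somatic markers, beside 25.7%. The part of somatic cells in the forkhead values was not tested.

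H3K27me3 covered most forkhead promoters at every stage. A promoter was the window of 1 kb on each side of the start that RefSeq lists, given for 23 members, or of either annotated gene end for the other 15. It counted as marked from 1 bp of a peak. In c7 oogonia-like cells 32 of 38 members were marked, beside 43.3% of all genes. In c13 the count was 37, all but Foxj2, beside 58.9%. In c34 it was 28 beside 40.7%, at E18.5 also 28 beside 35.9%, and in GV oocytes 21 beside 25.7%. With all peaks, both the members and the genes at large thus had their highest share in c13 and their lowest in GV oocytes. In c13 the peaks over members were wide, with a median of 765 kb and a range from 20 to 3850 kb. When peaks of 1 Mb or more were left out, 20 members were marked in c13, beside 43.2% of all genes. The other counts were then 28 in c7, beside 40.2%, 26 in c34, beside 38.6%, 24 at E18.5, beside 32.1%, and 21 in GV oocytes, beside 25%. The order did not hold for members, whose lowest count was then in c13, and held for genes at large.

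**Figure D1:**
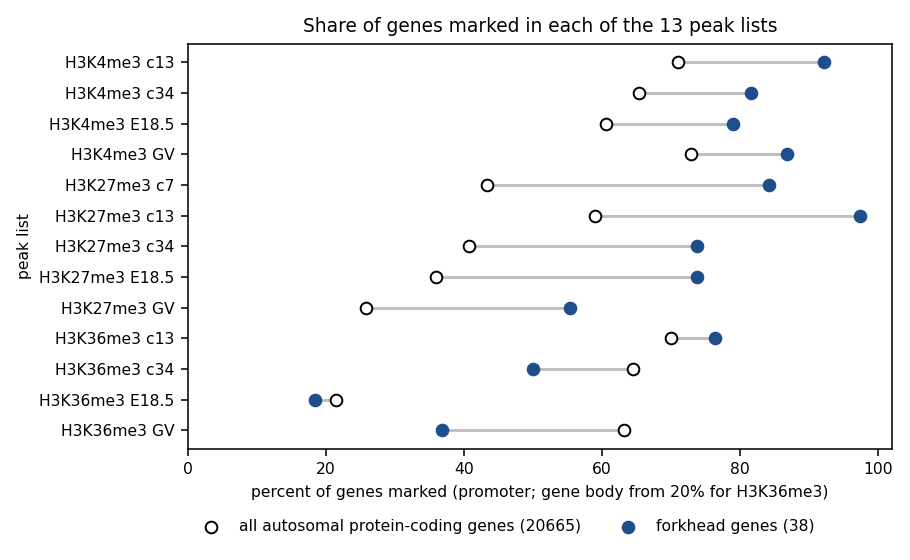
Percent of genes marked (x axis) in each of the 13 peak lists (y axis), for the 38 forkhead genes (filled points) and all 20665 autosomal protein-coding genes (open points); each value comes from 1 list and has no error. The forkhead share lies above the background in all 9 lists of H3K4me3 and H3K27me3 and in the c13 list of H3K36me3, and below it in the other 3 lists of H3K36me3.

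Over the 5 lists, 18 of 38 promoters carried H3K27me3 at every stage, beside 11.2% of all genes, and none lacked it throughout, beside 26.3%. They included Foxb1, Foxb2, Foxc1, Foxc2, Foxd1, Foxd2, Foxe1, Foxe3, Foxf1, Foxf2, Foxi2, Foxl1, Foxn4, Foxo6, Foxp2, Foxq1 and Foxs1. Leaving out the c13 list, a choice made after seeing the data, gave the same count of 18, beside 12.6% of all genes. Without peaks of 1 Mb or more the count was 9, beside 6.52%, and with both changes it was 14, beside 9.86%. A further 7 members were marked in 4 lists, 6 in 3, 3 in 2, and 4 in c13 alone.

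**Figure D2:**
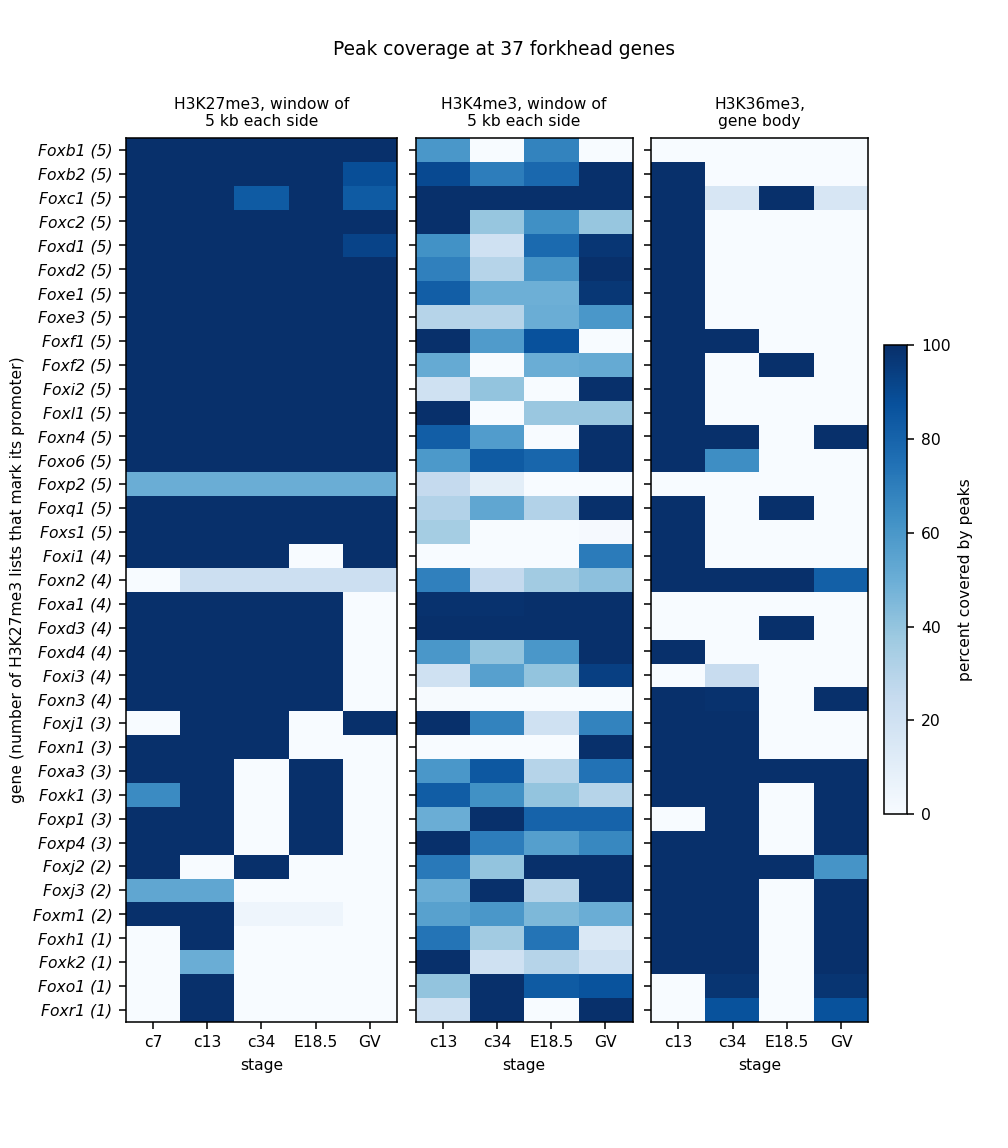
Percent covered by peaks for 37 of the 38 forkhead genes (y axis, with the number of H3K27me3 lists that mark its promoter in brackets) at each stage (x axis), for H3K27me3 and H3K4me3 in windows of 5 kb on each side of the start or of both gene ends and for H3K36me3 over the gene body. Darker blue means more of the window or body under peaks; the top 17 genes carry H3K27me3 at every stage, and in GV oocytes H3K36me3 lies mainly over genes in the lower part.

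Many of the genes marked throughout are known as regulators of the development of particular tissues. Foxe3 sets up the lens, Foxe1 the thyroid, Foxn4 amacrine cells of the retina, Foxd1 the stroma of the kidney, and Foxf1 and Foxl1 the mesenchyme of lung and gut. Over a wider window of 5 kb on each side, 14 of the 18 were under H3K27me3 peaks for the whole window in all 5 lists. The share of all genes was not counted, and whole windows were usual at marked members under these wide peaks. They were found at 29 of 32 marked members in c7, 33 of 37 in c13 and 25 of 28 in c34. At E18.5 the count was 26 of 28, and in GV oocytes 16 of 21. The other 4 of the 18 were Foxb2 and Foxd1, whole in all lists but GV, where 88.3% and 92.4% were covered, Foxc1, and Foxp2. The window of Foxc1, a regulator of eye and vessel development, was whole in c7, c13 and at E18.5 and covered to 83.5% in c34 and in GV oocytes. For Foxp2, which acts in brain circuits for learned vocalisation, the windows were 50% covered in every list. Only its end at the lower coordinate was marked, and peaks there were narrow, from 20 kb in c13 and at E18.5 to 110 kb in GV oocytes.

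H3K4me3 at these genes, which the choice by H3K27me3 did not use, differed from gene to gene. The window of Foxc1 was full of H3K4me3 in all 4 lists, under peaks of 24, 13, 12 and 59 kb in c13, c34, E18.5 and GV oocytes. That of Foxb2 was covered to 90%, 70%, 78.3% and 100%, that of Foxd1 to 62.4%, 20%, 77.6% and 97.6%, and that of Foxd2 to 69%, 30%, 61% and 100%. The windows of Foxe1 were covered to 82.4%, 49.5%, 49.5% and 97.1%, and those of Foxq1, a gene of hair and stomach epithelium, to 31.2%, 53.3%, 31.2% and 100%. These last 5 genes thus had their highest coverage in GV oocytes, where the H3K4me3 peaks over Foxb2 and Foxq1 were 47 and 49 kb wide. Foxi2 was covered to 20%, 40%, 0% and 100% in the same order.

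Other genes of the same group had less H3K4me3 in GV oocytes. Foxe3 was covered to 30%, 30%, 50% and 60% under peaks of 3 to 6 kb. Foxc2, needed for lymphatic vessels and valves, was covered to 100%, 39.3%, 62.9% and 39.3%, and its neighbour Foxl1 to 100%, 0%, 38.6% and 38.6%. Both lay under 1 H3K4me3 peak of 86 kb in c13 with Foxf1. Foxf2, a gene of palate and brain vessels, was covered to 51.8%, 0%, 50% and 51.8%. Foxp2 was covered to 25% in c13, 10% in c34 and 0% in both oocyte lists. The group thus ranged from 0 to 100% of the window in GV oocytes with H3K27me3 at each promoter. H3K36me3 covered 15 of the 18 bodies in c13, beside 69.9% of all genes, and 3 in c34 (Foxf1, Foxn4 and Foxo6), beside 64.5%. At E18.5 it covered 3 (Foxc1, Foxf2 and Foxq1), beside 21.4%, and in GV oocytes 1 (Foxn4), beside 63.1%. The E18.5 count was near the share of genes at large, and its 3 genes shared 1 peak of 2200 kb. In c13 all of the 15 but Foxd2 and Foxe3 lay under peaks of 1 Mb or more.

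Some of these genes lie side by side and shared their peaks. Foxq1, Foxf2 and Foxc1 lie within 252 kb (chr13:31558170-31810635). In each of the 5 H3K27me3 lists 1 peak held all 3, with a width of 580 kb in c7, 1020 kb in c13, 260 kb in c34, 820 kb at E18.5 and 260 kb in GV oocytes. The c34 and GV peaks had the same ends (chr13:31550001-31810000), short of the far end of Foxc1. Foxf1, Foxc2 and Foxl1 lie within 46.3 kb (chr8:121084386-121130644), and the peak that held them was 1590 kb wide in c7, 2240 in c13, 910 in c34, 1580 for E18.5 and 710 in the GV list. Foxd2 and Foxe3 lie within 19.8 kb (chr4:114906280-114926067) under peaks of 660, 400, 640, 650 and 610 kb. The first 2 domains were narrowest in GV oocytes, the first at the same width as in c34, while the third varied least. Counting such neighbours once leaves 33 groups, and 13 of these were marked at every stage.

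Between E18.5 and GV oocytes, 9 of the 28 marked members lost promoter H3K27me3, beside 57.9% of all genes marked at E18.5. Here lost means inside a peak of the earlier list and outside the peaks of the later one. The 9 were Foxa1, Foxa3, Foxd3, Foxd4, Foxi3, Foxk1, Foxn3, Foxp1 and Foxp4. The other 19 kept it, beside 42.1%. Among the 10 unmarked at E18.5, Foxi1 and Foxj1 were marked in GV oocytes, beside 16.6%. At lost members the E18.5 peak had a median width of 410 kb, and the nearest GV peak lay a median of 148 kb away, from 27 kb for Foxk1 to 973 kb for Foxd3. At kept members the median peak width was 650 kb at E18.5 and 260 kb in GV oocytes. These medians count members, and the neighbours that shared E18.5 peaks of 1580, 820 and 650 kb were all kept. Such peaks entered the kept median more than once, so it cannot be set against that of lost members. The E18.5 widths overlapped, from 170 to 1180 kb at lost and from 20 to 1580 kb at kept members.

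Foxa1, a pioneer factor of endoderm and hormone-responsive epithelia, had its 5 kb window wholly under H3K27me3 in c7, c13, c34 and at E18.5 and not at all in GV oocytes. The peaks over it were 180, 110, 60 and 190 kb wide, and the nearest GV peak lay 243 kb away. H3K4me3 covered 98.9% of the window in c13 and in c34 and 100% in both oocyte lists. The H3K4me3 peak itself was 17 kb wide in c13, 16 in c34, 18 for E18.5 and 60 in the GV list. No H3K36me3 lay over its body in any list. Foxa1 thus had both promoter marks at c13, c34 and E18.5 and H3K4me3 alone in GV oocytes. Its listed start lies inside the annotated gene (chr12:57540628-57548029), and both gene ends gave the same H3K27me3 and H3K4me3 calls.

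Foxd3, which maintains pluripotent cells and neural crest, and Foxd4 had that order of H3K27me3 too. Both windows were wholly covered in c7, c13, c34 and at E18.5 and uncovered in GV oocytes. The peaks over Foxd3 were 160, 450, 100 and 410 kb wide, and those over Foxd4 were 340, 1170, 70 and 340 kb. The H3K4me3 window of Foxd3 was full in all 4 lists, with peaks of 14, 14, 16 and 86 kb in c13, c34, E18.5 and GV oocytes. That of Foxd4 was 59.8%, 40%, 59.8% and 99.8% covered, with peaks of 17, 4, 14 and 73 kb. At both genes the GV peak of H3K4me3 was the widest of the 4. H3K36me3 covered all of Foxd3 at E18.5 alone, under a peak of 2230 kb, and all of Foxd4 in c13 alone, under a peak of 4330 kb.

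Foxi3, a gene of ear, jaw and hair development, was wholly covered by H3K27me3 up to E18.5, under peaks of 370, 470, 100 and 220 kb, and uncovered in GV oocytes. Its H3K4me3 window was 20% covered in c13, 56.1% in c34, 40% for E18.5 and 93.9% in the GV list, where the peak was 52 kb wide. H3K36me3 reached 23.9% of its body in c34 and none in the other lists. Foxi3 was thus the 1 lost member with body H3K36me3 in c34 and without it in GV oocytes.

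The other 5 lost members all had H3K36me3 over 100% of their bodies in GV oocytes. Foxn3, a checkpoint repressor with a body of 374 kb, had its window wholly under H3K27me3 in c7, c13, c34 and at E18.5 and uncovered in GV oocytes. H3K27me3 covered 100% of its body in c7, c13 and at E18.5, 41.1% in c34 and none in GV oocytes. H3K36me3 covered 100% of it in c13, 99% in c34, none at E18.5 and 100% in the GV list. The body thus had H3K27me3 without H3K36me3 at E18.5 and the reverse in GV oocytes. The start listed for Foxn3 lies inside the gene (chr12:99190081-99563667), and the window around it held 0.74% H3K4me3 in c13 and none in the other lists. Its end at the higher coordinate carried H3K4me3 in all 4 lists and lost H3K27me3 in the GV list too.

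Foxp1, Foxp4, Foxa3 and Foxk1 lacked promoter H3K27me3 in c34 as well as in GV oocytes. Foxp1, a regulator of lymphocytes, heart and brain with a body of 597 kb, had its window full of H3K27me3 in c7, c13 and at E18.5 and empty in c34 and GV oocytes. Its body was covered to 99.2%, 82.5%, 65.3%, 82.5% and 0% in the order c7, c13, c34, E18.5 and GV, so that in c34 much of the body had the mark although the promoter did not. H3K36me3 covered none of the body in c13, all in c34, none at E18.5 and all in GV oocytes. H3K4me3 covered 50% of the window in c13, 100% in c34, 80.1% for E18.5 and 80.1% in the GV list. The listed start lies inside the annotated gene (chr6:98925342-99522746), and the gene end beside it gave the same calls of both promoter marks.

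Foxp4, a gene of lung and gut development, had its window full of H3K27me3 in c7, c13 and at E18.5 and empty in c34 and GV oocytes. The c34 peak nearest to the promoter window lay 4.37 kb away, outside the gene. Another c34 peak covered 4.99% of the body. Its H3K4me3 window was 100% covered in c13, 70% in c34, 56.3% for E18.5 and 66.3% in the GV list. Foxa3, an endoderm and liver factor, had full H3K27me3 windows in those 3 lists also, and H3K4me3 over 60%, 84.6%, 30% and 74.6%. Foxk1, a widely expressed factor tied to metabolism, had H3K27me3 over 64.9% of its windows in c7, 100% in c13 and at E18.5, and none in c34 and GV oocytes. Its H3K4me3 coverage was 82.5%, 62.5%, 40.1% and 30%. H3K36me3 covered the whole bodies of these 3 genes in c13, c34 and GV oocytes, and that of Foxa3 also at E18.5. At Foxk1, unlike Foxa1, Foxd3, Foxd4 and Foxi3, the GV peak of H3K4me3 was narrow, at 3 kb.

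**Figure D3:**
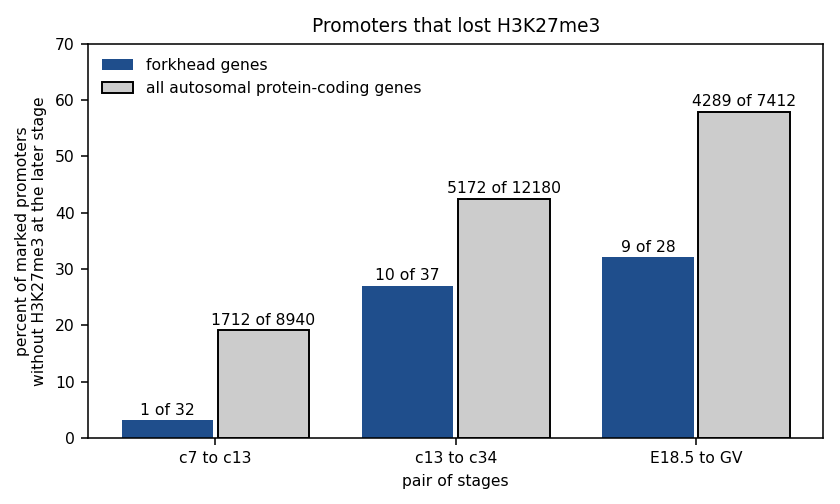
Percent of promoters with H3K27me3 at the earlier stage that lacked it at the later stage (y axis) for 3 pairs of stages (x axis), for forkhead genes (blue) and all autosomal protein-coding genes (grey), with the counts above the bars. The bars use all peaks, and the forkhead share is the lower one in each pair, at 1 of 32, 10 of 37 and 9 of 28. Without peaks of 1 Mb or more, not drawn here, the counts are 12 of 28, 6 of 20 and 8 of 24, and the first share is not the lower one. Each bar compares 2 lists and has no error.

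In culture, 1 of the 32 members marked in c7 was unmarked in c13, Foxj2, beside 19.1% of all genes marked in c7. All 6 members unmarked in c7 were marked in c13, beside 42.2%: Foxh1, Foxj1, Foxk2, Foxn2, Foxo1 and Foxr1. From c13 to c34, 10 of 37 were lost, beside 42.5%. These were Foxa3, Foxh1, Foxj3, Foxk1, Foxk2, Foxm1, Foxo1, Foxp1, Foxp4 and Foxr1. Foxj2 was gained, the 1 member open to gain, beside 16.5% of all genes. The nearest c34 peak lay a median of 28.6 kb from the lost promoters, from 3.12 to 79 kb, so a c34 peak was within 100 kb of each of the 10. Of the c13 peaks over these 10, 4 were 1 Mb wide or more. Without peaks of that width, 6 of 20 were lost from c13 to c34, beside 44.6%, and 12 of 18 gained, beside 25.8%. From c7 to c13, 12 of 28 were then lost, beside 39.1%, so that the low share of members lost at that step did not hold.

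The end products of culture and of the ovary, c34 cells and GV oocytes, were set side by side. Of 28 members marked in c34, 7 were unmarked in GV oocytes, beside 42.5% of all genes: Foxa1, Foxd3, Foxd4, Foxi3, Foxj2, Foxn1 and Foxn3. Of 21 marked in GV oocytes, none was unmarked in c34, beside 9.13%. This pair uses the GV list that the step from E18.5 uses and the c34 list that the step from c13 uses, so these counts do not stand apart from the earlier ones. Peaks over members had a median width of 230 kb in c34 and of 190 kb in GV oocytes.

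2 of these 7 were not among those lost after E18.5. Foxj2 had its H3K27me3 window full in c7 and c34 and empty in c13, in both oocyte lists, under peaks of 520 and 490 kb. It carried H3K4me3 over 71.8% of the window in c13, 40% in c34, and 100% in both oocyte lists. H3K36me3 covered its whole body in c13, c34 and at E18.5 and 61% in the GV list. H3K27me3 over its body was likewise whole in c7 and c34 and nil in the other lists, so c34 gave both marks over 1 body. Foxn1, needed for thymus epithelium and hair, had a full H3K27me3 window in c7, c13 and c34 and an empty one in both oocyte lists, and its H3K36me3 covered the whole body in c13 and c34 and none in both oocyte lists. Its H3K4me3 window was empty in c13, c34 and at E18.5 and full in GV oocytes, under a peak of 46 kb.

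In c34 and in both oocyte lists, though not in c13, H3K4me3 was found at more member promoters than H3K27me3. Promoters of 35 members carried it in c13, beside 71% of all genes, 31 in c34, beside 65.4%, 30 at E18.5, beside 60.6%, and 33 in GV oocytes, beside 72.8%. At all 4 stages 26 were marked, beside 54.3%, and Foxn3 alone at none, beside 19%. From c13 to c34, 4 of 35 were lost, beside 13.2%: Foxb1, Foxf2, Foxl1 and Foxs1. From E18.5 to GV oocytes 2 of 30 were lost, Foxb1 and Foxf1, beside 6.89%, and 5 of 8 were gained, beside 41.6%: Foxi1, Foxi2, Foxn1, Foxn4 and Foxr1. Gene bodies were under H3K4me3 from 20% of their length in 31 members in c13, beside 43.1% of all genes, 24 in c34, beside 37%, 25 at E18.5, beside 26.5%, and 24 in GV oocytes, beside 43.8%.

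The width of H3K4me3 differed more between stages than its presence. Peaks over members had a median width of 10 kb in c13, 6 kb in c34, 8.5 kb at E18.5 and 20 kb in GV oocytes. All H3K4me3 peaks of the 4 lists had medians of 4, 5, 4 and 11 kb, so the GV list was the widest for genes at large as well. In GV oocytes, windows of the 17 members without promoter H3K27me3 were covered by H3K4me3 to a median of 86.6%, and those of the 21 with it to a median of 67.6%, and both groups ranged from 0 to 100%. In c34 the medians were 77.3% for 10 members without and 39.6% for 28 with H3K27me3. At E18.5 the order was the reverse, 30% for 10 members without and 50% for 28 with it.

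H3K4me3 and H3K27me3 shared many forkhead promoters, although lists made from many cells cannot show whether 1 allele carried both. In c13, 34 members had both, beside 47.3% of all genes. In c34 the count was 21, beside 22.4%, at E18.5 it was 23, beside 16.8%, and in GV oocytes 17, beside 13.9%. H3K4me3 without H3K27me3 was found at 16 members in GV oocytes, beside 58.9%. With peaks narrower than the median of their list left out, 11 members had both in c34, beside 10.6%, and 9 in GV oocytes, beside 5.66%. The 4 members with H3K27me3 and no H3K4me3 in GV oocytes were Foxb1, Foxf1, Foxp2 and Foxs1, beside 11.8%. Foxb1, a hypothalamic regulator, had H3K4me3 over 60% of its windows in c13, none in c34, 67.6% for E18.5 and none in GV oocytes. Foxs1, found in pericytes and sensory neurons, had H3K4me3 over 35.4% in c13, none in c34 and at E18.5, and 0.911% in GV oocytes, outside the promoter. Foxn3 alone had neither mark at its listed start in GV oocytes, beside 15.4%.

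Of the 14 members with body H3K36me3 in GV oocytes, 12 lacked promoter H3K27me3, beside 86% of all genes with such a body, so the members' share was that of genes at large. A body counted as marked from 20% coverage. In c13 29 members were marked, beside 69.9% of all genes, under very wide peaks with a median of 4515 kb and a range from 240 to 20860 kb. Without peaks of 1 Mb or more, 4 were marked in c13, beside 11.2%. In c34 the count was 19, beside 64.5%, at E18.5 it was 7, beside 21.4%, and in GV oocytes 14, beside 63.1%. The E18.5 peaks over members had a median of 1400 kb, and without peaks of 1 Mb or more 2 members were marked there, beside 12.7%. The 14 in GV oocytes were Foxa3, Foxh1, Foxj2, Foxj3, Foxk1, Foxk2, Foxm1, Foxn2, Foxn3, Foxn4, Foxo1, Foxp1, Foxp4 and Foxr1. All 14 were marked in c34 as well, and the other 5 of c34 were Foxf1, Foxi3, Foxj1, Foxn1 and Foxo6.

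From c13 to c34, 14 of 29 H3K36me3 bodies were lost, beside 22.9%, and 4 of 9 were gained, beside 35.5%. The gains were Foxi3, Foxo1, Foxp1 and Foxr1. Without peaks of 1 Mb or more, 4 members were marked in c13, so most of the 14 losses rest on c13 peaks of that width. From E18.5 to GV oocytes, 11 of 31 were gained, beside 63.1%, and 4 of 7 were lost, beside 37%: Foxc1, Foxd3, Foxf2 and Foxq1. Of these 4, Foxc1, Foxf2 and Foxq1 shared 1 E18.5 peak of 2200 kb, and Foxd3 lay under a peak of 2230 kb. The losses are thus not separate events, and all rest on peaks of 1 Mb or more. Foxa3, Foxj2 and Foxn2 had the mark at all 4 stages. H3K27me3 bodies, counted in the same way, numbered 30 in c7, beside 41.8%, 33 in c13, beside 56%, and 27 in c34, beside 40.1%. At E18.5 they numbered 26, beside 34.7%, and in GV oocytes 20, beside 26.8%. Without peaks of 1 Mb or more, 16 of 38 members had such a body in c13, beside 40.4%, so near the share of genes at large. Bodies with both marks numbered 25 in c13, beside 47.8%, 9 in c34, beside 18.9%, 5 at E18.5, beside 8.09%, and 1 in GV oocytes, beside 9.33%.

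That 1 member was Foxn4. Its window was wholly under H3K27me3 in every list, with peaks of 300, 1230, 30, 350 and 20 kb, and its body was covered to 100%, 100%, 71.2%, 100% and 71.2% in the order c7, c13, c34, E18.5 and GV. H3K36me3 covered all of its body in c13, c34 and GV oocytes, in the last under a peak of 1560 kb, and none at E18.5. H3K4me3 covered 82.4% of its window in c13, 57.6% in c34, none at E18.5 and 100% in the GV list. Foxn4 thus had all 3 marks in c13, c34 and GV oocytes.

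The cell cycle factor Foxm1 and the Nodal signalling partner Foxh1 lost H3K27me3 in culture and had H3K36me3 in c34 and GV oocytes. Foxm1 had full H3K27me3 windows in c7 and c13, 4.43% in c34 and at E18.5, outside the promoter, and none in GV oocytes. Its H3K4me3 coverage was 55.5% in c13, 60% in c34, 45.5% for E18.5 and 50% in the GV list. Foxh1 had H3K27me3 in c13 alone, over its full windows, with H3K4me3 over 73.8%, 36.3%, 73.8% and 14.5%. H3K36me3 covered the whole bodies of both in c13, c34 and GV oocytes and none at E18.5. Both genes thus had an H3K36me3 body in each list but that of E18.5. Foxj3 had the same H3K36me3 values, and its H3K27me3 window was 53.4% covered in c7 and c13 and empty later, with 0.38% of the body covered in those 2 lists. Its H3K4me3 window was 50%, 100%, 30% and 100% covered.

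Foxk2, a widely expressed relative of Foxk1, had H3K27me3 over 50.1% of its window in c13 and none in the other lists. H3K36me3 covered its whole body in c13, c34 and GV oocytes and none at E18.5. H3K4me3 covered 100% of its window in c13, 20% in c34, 30% for E18.5 and 20% in the GV list. Foxn2 was marked by H3K27me3 at 1 gene end in c13, c34, E18.5 and GV oocytes, over 21.5% of its windows in each. None of its body was covered in any list, so the peak lay outside the gene. H3K36me3 covered all of that body in c13, c34 and at E18.5 and 81.3% in the GV list, and H3K4me3 covered 69.1%, 25%, 36.2% and 41.5% of its windows. Foxn2 was thus counted as marked by H3K27me3 through a peak beside an H3K36me3 body.

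Foxo1, a target of insulin and PI3K signalling, had H3K27me3 in c13 alone, over its full window and body, under a peak of 1420 kb. The nearest H3K27me3 peak lay 17.3 kb from its promoter in c7, c34 and GV oocytes and 1461 kb away at E18.5. H3K4me3 covered 40% of its window in c13, 100% in c34, 83.4% for E18.5 and 86.6% in the GV list. H3K36me3 covered none of its body in c13 and at E18.5 and 97.8% in c34 and in GV oocytes. Its peaks of H3K4me3 were 31 kb wide in c34 and 32 kb in GV oocytes, against 4 kb in c13 and 9 kb at E18.5. Foxr1 had the same order of H3K36me3, 0%, 86.9%, 0% and 86.9%, with H3K4me3 over 20%, 100%, 0% and 100% of its window and H3K27me3 in c13 alone. Both genes thus had body H3K36me3 in c34 and GV oocytes and not in the other lists.

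Foxo6, the brain-enriched FOXO factor, had the same promoter H3K4me3 calls as Foxo1, in all 4 lists, and other H3K27me3 and H3K36me3 values. Its windows were wholly under H3K27me3 in all 5 lists, with peaks of 760, 780, 540, 750 and 170 kb. H3K36me3 covered its body to 100% in c13, 64% in c34 and 0% in both oocyte lists. H3K4me3 covered 59.1%, 83.3%, 79.1% and 100% of its windows. Of 11 genes that act on or with FOXO factors (Pdpk1, Pik3ca, Pik3r1, Akt1, Akt2, Sgk1, Sirt1, Crebbp, Ep300, Ywhaz and Cdkn1b), 10 carried H3K4me3 in c13, 11 in c34, 8 for E18.5 and 10 in the GV list. All genes had promoter H3K4me3 at 71%, 65.4%, 60.6% and 72.8% in the same order. Body H3K36me3 was found in 9, 10, 0 and 10 of the 11, beside 69.9%, 64.5%, 21.4% and 63.1% of all genes. Promoter H3K27me3 was found in 4 in c7, 7 in c13, 0 in c34, 2 for E18.5 and 1 in the GV list. The shares of all genes were 43.3%, 58.9%, 40.7%, 35.9% and 25.7%. None of the 11 had it at all 5 stages, beside 11.2% of all genes.

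Foxj1, the master regulator of motile cilia, had H3K27me3 in c13, c34 and GV oocytes, over its full windows, and none in c7 and at E18.5. H3K36me3 covered its body in c13 and c34 and not at E18.5 or in GV oocytes, and H3K4me3 covered 100%, 67.6%, 20.3% and 67.6% of its windows. Foxi1, a regulator of inner ear and kidney intercalated cells, had full H3K27me3 windows in c7, c13, c34 and GV oocytes and an empty one at E18.5. Its promoter had H3K4me3 in GV oocytes alone, over 70.9% of the window. These 2 were the members marked in GV oocytes and not at E18.5, with E18.5 peaks 89.7 kb from Foxj1 and 97.1 kb from Foxi1. Foxf1 had H3K27me3 in all lists, H3K36me3 over its whole body in c13 and c34 and none later, and H3K4me3 over 100%, 58.1%, 87.2% and 0% of its windows.

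The groups differed in median gene length and overlapped in range. The 18 members with H3K27me3 at all 5 stages had a median length of 3.1 kb, from 1.31 to 541 kb, and the other 20 a median of 19 kb, from 2.07 to 597 kb, beside 17.5 kb for all genes. The 14 members with H3K36me3 in GV oocytes had a median of 49.9 kb, against 3.24 kb for the other 24. Of 23 members up to 10 kb long, 2 had body H3K36me3 in GV oocytes, Foxh1 and Foxr1, beside 47.5% of all genes of that length, and 17 had promoter H3K27me3, beside 27%. Of 15 longer members, 12 had H3K36me3 in GV oocytes, beside 71.7%, and 4 had H3K27me3, beside 25%. Foxn1, Foxo6 and Foxp2 were the longer members without H3K36me3 in GV oocytes, and Foxo6 and Foxp2 kept H3K27me3. Because the H3K36me3 grid of 10 kb is longer than each member in the short group, a body mark there cannot be told apart from a mark of the surroundings.

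**Figure D4:**
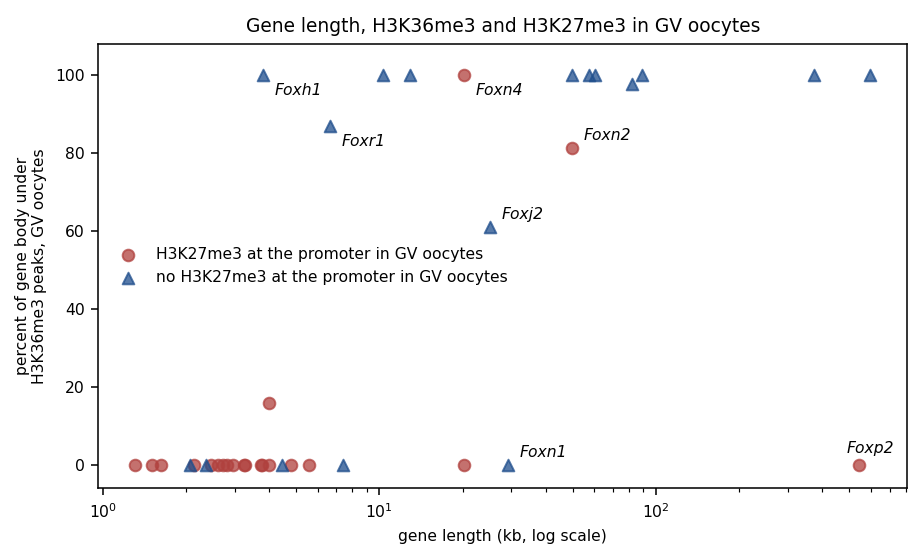
Percent of the gene body under H3K36me3 peaks in GV oocytes (y axis) against gene length in kb (x axis, log scale) for the 38 forkhead genes, as red circles with and blue triangles without promoter H3K27me3 in GV oocytes. Most short genes lie at 0% and most of these are red, while the 14 genes with H3K36me3 have a median length of 49.9 kb; Foxn4 and Foxn2 are the red points with H3K36me3.

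H3K27me3 at members did not stop at the gene. At the ends of the 38 genes, 78.9% of positions lay under peaks in c7, 89.5% in c13, 67.1% in c34, 68.4% for E18.5 and 48.7% in the GV list, against 40.7%, 56.5%, 37.7%, 33.9% and 23.9% of gene ends at large. At 200 kb outward the shares were 63.2%, 76.3%, 51.3%, 52.6% and 39.5%, against 42.7%, 56.7%, 42.4%, 39.7% and 28.5%. The member curve was thus still above the other at that distance in each list, though members that lie side by side share surroundings.

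**Figure D5:**
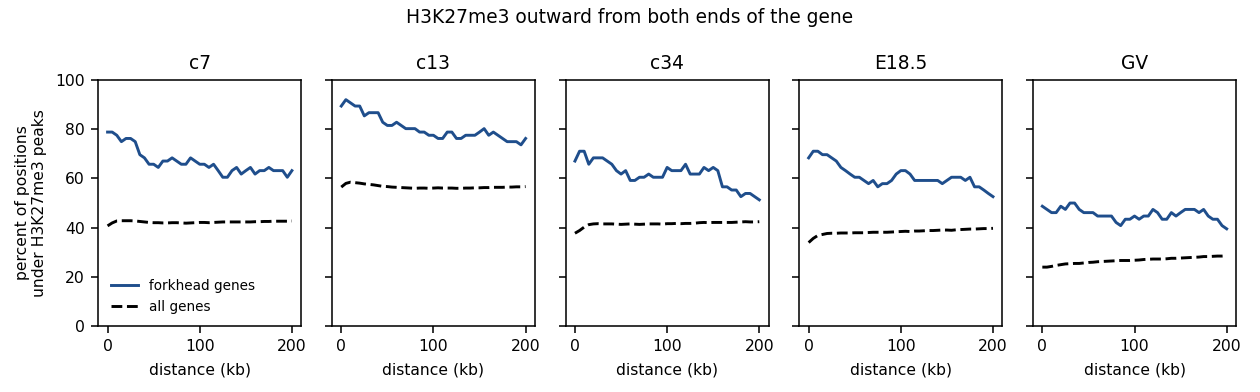
Percent of positions under H3K27me3 peaks (y axis) at distances of 0 to 200 kb outward from both gene ends (x axis, kb) in the 5 H3K27me3 lists, for the 38 forkhead genes (blue line) and all autosomal protein-coding genes (dashed line). The forkhead line lies higher in every panel, at 48.7% against 23.9% at the gene ends in GV oocytes and at 39.5% against 28.5% at 200 kb.

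Hox and Pax genes, which are other families of developmental regulators, were counted the same way. H3K27me3 at all 5 stages was found at 36 of 39 Hox genes and 7 of 9 Pax genes, against 18 of 38 forkhead genes, beside 11.2% of all genes. From E18.5 to GV oocytes 3 of 39 Hox genes and 2 of 9 Pax genes lost it, against 9 of 28, beside 57.9% of all genes marked at E18.5. Body H3K36me3 in GV oocytes was found at 0 of 39 Hox genes and 1 of 9 Pax genes, against 14 of 38 forkhead genes. All genes had it at 63.1%, so each of these families lay below genes at large. Hox genes lie in a few clusters and share peaks, and these differences could not be tested.

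The promoter table held 23 of the members and 16457 of all genes. Over its 300 bases, from 250 before to 50 after the start, members had a median of 22 CpG, beside 14 for all genes. The 8 members that kept H3K27me3 from E18.5 to GV oocytes held from 5 (Foxi2) to 32 CpG (Foxc1), and the 8 that lost it from 6 (Foxn3) to 33 (Foxp4). The 7 unmarked at E18.5 ranged from 6 (Foxi1) to 59 (Foxk2). The upstream bases of Foxk2 are among those shown. The ranges of kept and lost members overlapped almost wholly. For all genes the medians were 7 CpG where H3K27me3 was kept and 9 where it was lost.

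Letters of 3 motifs were searched on both strands. The GC box core GGGCGG was found in 17 of 23 members, beside 47.3% of all promoters of that table, and the letters TATAAA in Foxa3 alone, beside 13.5%. The forkhead motif TGTTTAC was found in 1 member, Foxa1, beside 2.95%. The stretch around it is shown because Foxa1 is itself a forkhead gene and lost H3K27me3 by the GV stage (chr12:57546236-57546262, minus strand, with the motif, here as its reverse complement, in capitals).
Foxa1: atactgctttGTAAACAaagtgagggc
A match gives these letters in the window and not a bound site.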

How the data were processed

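CATCH-seq libraries for H3K4me3 (9), H3K27me3 (9), H3K36me3 (8) and input (9) came from the samples, 35 in all. The authors deposited 13 peak lists in a unit classed as other: each line gives a peak's chromosome, start and end, per the file headers, and no score. The submitters' processing notes list, in no order, bedtools 2.29.2, Bowtie2 2.3.4.1, cutadapt 1.9.1, deepTools 3.5.0, MACS2 2.1.1, Picard 2.18.23, SAMtools 1.7, SICER 0.0.41 and Trim Galore 0.4.1, and the builds mm10 and GRCm38.p3. The peak caller of each mark, its threshold, and whether it used input or pooled libraries were not given in the sources used here. The depth of the libraries is unknown, so the number and width of peaks can differ between lists through depth or threshold. Input has no list and was not used here.

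Genes and starts came from RefSeq tables of GRCm38.p6, which share the primary assembly of the peaks; coordinates in the text are 1-based. Promoters were windows of 1 kb on each side of the listed start, or of either gene end where no start was listed, marked from 1 bp. Bodies were marked from 20% coverage. Backgrounds are shares of all 20665 autosomal protein-coding genes. With 1 list per stage and mark, no test was run. Values in every list are given for members that lost H3K27me3 from E18.5 to GV oocytes, that differed between c34 and GV oocytes, or that had body H3K36me3 in c34 or GV oocytes. The rule also asked for the 5 members with the most H3K27me3 over the 5 kb windows, but 14 tied at full coverage and none was singled out. Members, lists and rules were chosen with earlier results of these data known. On simulated data, 200 of 200 genes with a planted peak were found. The software was pandas 2.3.3, numpy 2.4.6 and matplotlib 3.10.9 under Python 3.11.15. Values of 1 member and of 2 genes of the FOXO list are not reported here, though the member stays in the counts. Alternatives changed the window, the start, the overlap, the peak width, the body share and the counting of neighbours.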

Additional observations from a re-analysis of the deposited data

How the results depend on the processing

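Of 229 counts of members recomputed under an alternative, 211 stayed within 1.5 times their value and 18 did not. Some of the 211 could not move, so their number does not measure how firm the counts are. H3K4me3 peaks over members were at most 86 kb wide, so leaving out peaks of 1 Mb or more cannot change their promoter counts. In that setting 13 of 35 counts moved. None of the 18 came from a window of 5 kb, the start position alone, either gene end for all members, 50% window coverage, a body share of 10% or 50%, or 1 member per group of neighbours. With peaks of at least the median width of their list, both promoter marks were found at 11 members in c34, beside 10.6% of all genes, and 9 in GV oocytes, beside 5.66%. H3K27me3 was then gained from E18.5 to GV oocytes at 4 of 12, beside 12.2%, and lost from c7 to c13 at 3 of 31, beside 24%. It was found in GV oocytes and not in c34 at 2 members, with the share of all genes not counted. Without peaks of 1 Mb or more, promoter H3K27me3 in c13 was found at 20 members, beside 43.2% of all genes. Body H3K27me3 in c13 was found at 16 of 38, beside 40.4%, so near the share of genes at large. Body H3K36me3 was found at 4 in c13, beside 11.2%, and 2 at E18.5, beside 12.7%. Both promoter marks in c13 were found at 19, beside 34.5%, and H3K27me3 at all 5 stages at 9, beside 6.52%. Gains from E18.5 to GV oocytes then numbered 5 of 14, beside 18%. From c7 to c13, 12 of 28 were lost, beside 39.1%, and 16 were kept. From c13 to c34, 6 of 20 were lost, beside 44.6%, 14 were kept, and 12 of 18 were gained, beside 25.8%. H3K27me3 in GV oocytes and not in c34 was found at 2 members, again with no share of all genes counted. This alternative takes wide peaks out, so members under them count as unmarked. Losses from E18.5 to GV oocytes numbered from 8 of 24, beside 60.1%, to 12 of 26, beside 62.8%, over the alternatives. Each of Foxa1, Foxa3, Foxd3, Foxd4, Foxi3, Foxk1, Foxn3 and Foxp4 was among the losses in all of these. The 2 alternatives that leave out the c13 list were chosen after seeing the data. No paired analysis was possible because each stage and mark has 1 list, and for the same reason no replicate could be left out. Peak lists give no depth, so whether an unmarked promoter carried a mark below the authors' threshold cannot be said.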
